A study of Homo sapiens with 2 samples.

Results

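The 9 genes described here encode transcription factors known to control ANGPTL4, the secreted inhibitor of lipoprotein lipase. They were chosen by symbol, as rows named PPARA, PPARD, PPARG, RXRA, RXRB, HIF1A, EPAS1, ARNT or NR3C1, and make up 9 of the 55773 symbols in the tables. Each was found in a single row of both tables, and all 9 were measured, which here means a value of 1 RPKM or more in either library. RPKM is the authors' unit, a read count divided by exon length and by the size of the library.

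RNA sequencing was done on total RNA of BFTC 905, an established human bladder cancer line with low ANGPTL4 per its label. The ANGPTL4 library came from cells transfected with a plasmid that overexpresses ANGPTL4, and the vector control library from cells transfected with pcDNA3.1-myc-His (-) A. Stable transfectants of both kinds were kept in 400 µg/ml G418, the antibiotic to which the plasmids give resistance. Whether a library stands for 1 clone or several, and which promoter drives the ANGPTL4 insert, is not given in the sources used here. No label names hypoxia, a glucocorticoid or a PPAR ligand as a treatment. There was 1 library per group, so there is no replicate check and no test between conditions, and every statement compares 2 libraries.

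From the steps between RPKM values, the depth was 3233596 reads in the ANGPTL4 library and 6572767 reads in the vector control library. ANGPTL4 itself was at 91.2 RPKM (732 reads) in the ANGPTL4 library and 3.92 RPKM (64 reads) in the vector control library. The plasmid and the chromosomal gene share these reads, which are not told apart. All 13 urothelial and epithelial markers were measured, with a summed level of 2057 RPKM in the ANGPTL4 library and 2245 RPKM in the vector control library. Of other cell types, 1 of 8 fibroblast markers was measured (summed to 4.73 RPKM in the ANGPTL4 library and 4.76 RPKM in the vector control library), with COL3A1, DCN, LUM, FAP and POSTN at 0 in both libraries. Of the 6 endothelial markers found by symbol, 1 was measured (summed to 9.52 RPKM in the ANGPTL4 library and 8.28 RPKM in the vector control library), with TEK at 0 in both. Of leukocyte markers, 3 of 7 were measured (summed to 21.2 RPKM in the ANGPTL4 library and 21.6 RPKM in the vector control library), with CD3E and CD79A at 0 in both and PTPRC at 0 reads in the ANGPTL4 library and 1 read in the vector control library. The measured markers of these cell types follow, in RPKM in the ANGPTL4 library and then the vector control library. The fibroblast marker COL1A1 was at 4.06 and 4.14, and the endothelial marker EGFL7 at 8.59 and 7.68. Of the leukocyte markers CD68 was at 18.0 and 17.1, LAPTM5 at 1.98 and 3.39, and CD14 at 1.15 and 0.968.

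PPARs are nuclear receptors that fatty acids and their derivatives activate, and they bind DNA as heterodimers with a retinoid X receptor. The alpha subunits of hypoxia-inducible factor, HIF1A and EPAS1, pair with ARNT, and their protein is hydroxylated and degraded when oxygen is plentiful, so that their activity is set largely at the protein level. The glucocorticoid receptor, NR3C1, is held by chaperones until a steroid binds it. All of these factors are known to raise ANGPTL4 transcription in some tissues, and in urothelium PPARG and RXRA are linked to the luminal differentiation programme.

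Part of the promoter of the chromosomal ANGPTL4 gene is shown, since these factors are known to control that gene. Whether they also act on the plasmid copy is not known, since the promoter of the insert is not given. The 250 bases before the ANGPTL4 start (RefSeq, GRCh38.p14, chr19:8363905-8364154, plus strand) read 5′ to 3′ as follows, with the core of the hypoxia response element (ACGTG, or CACGT on the other strand) in capitals.
ANGPTL4: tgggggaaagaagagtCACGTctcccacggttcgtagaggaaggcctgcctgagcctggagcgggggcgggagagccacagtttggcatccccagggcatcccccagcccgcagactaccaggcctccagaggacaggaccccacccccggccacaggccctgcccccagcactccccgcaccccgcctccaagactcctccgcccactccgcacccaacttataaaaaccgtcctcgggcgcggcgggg
The core begins 234 bases before the start, and 18.5% of 35116 promoter windows of this length hold it on either strand. The window has 16 CpG dinucleotides, against a median of 11 over all windows. It holds neither AGGTCA, the element of nuclear receptor sites, nor AGAACA, a part of glucocorticoid response elements. Only these exact letters within these 250 bases were searched. Sites further away or within the gene were not looked for, so their absence here does not mean that the gene lacks them. These motifs occur on either strand in 12.1% and 12.4% of windows.

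All 9 regulators have promoter windows in the same RefSeq table, 24 windows in all, since several genes have more than 1 start. The core occurs in 3 of the 24 windows, against 18.5% of all windows. These 3 belong to 2 of the 9 genes, PPARG (chr3:12287216-12287244, plus strand) and RXRB (chr6:33200886-33200914, minus strand). The matches are shown with their neighbouring bases and the core in capitals.
PPARG: tttctcgtgcctCACGTccccactccgtc
RXRB: cggtttgcttggACGTGgcagtcccgcct
The RXRB match lies in the windows of both of its starts. CpG dinucleotides ranged from 0 to 59 among the 24 windows. These matches describe letters only and were not tested as binding sites.

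The regulators differed widely in level, and HIF1A was the most abundant in both libraries. In order, the ANGPTL4 library had HIF1A, EPAS1, NR3C1, PPARD, RXRA, RXRB, ARNT, PPARG and PPARA, and the vector control library had HIF1A, EPAS1, NR3C1, RXRA, PPARD, RXRB, PPARG, ARNT and PPARA. HIF1A was above 98.5% of measured genes in the ANGPTL4 library and above 97.6% in the vector control library, while PPARA was above 22.2% of them in the ANGPTL4 library and 22.9% in the vector control library. In bulk RNA, fewer cells with a transcript and less of it per cell cannot be told apart. Neighbours in the order were compared by exact 95% intervals of their RPKM ratio. In the ANGPTL4 library PPARD and RXRA, RXRA and RXRB, and RXRB and ARNT did not differ beyond counting error. In the vector control library the same held for RXRA and PPARD, RXRB and PPARG, and PPARG and ARNT.

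**Figure D1:**
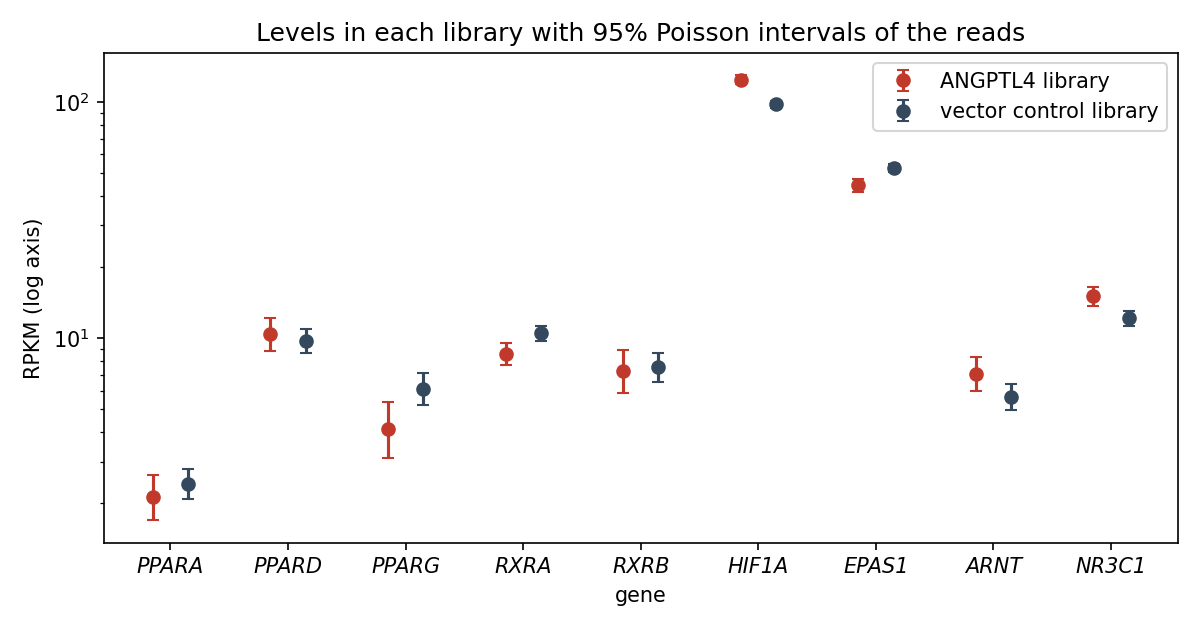
RPKM of the 9 regulator genes on a log axis, with the ANGPTL4 library (red) left of the vector control library (dark) for each gene and bars for exact 95% Poisson intervals of the reads. HIF1A was the top of the range in both, at 124 RPKM in the ANGPTL4 library and 97.6 RPKM in the vector control library, and PPARA the bottom, at 2.13 RPKM in the ANGPTL4 library and 2.42 RPKM in the vector control library.

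None of the 9 regulators differed 2-fold or even 1.5-fold between the libraries on the log2(RPKM + 1) scale. A difference of at least 2-fold was found in 1.19% of the 11802 measured genes on the higher side and 1.91% on the lower side, and one of at least 1.5-fold in 3.08% and 9.25%. Their log2 ratios, ANGPTL4 over vector control, ran from -0.47 to 0.34 with a median of -0.05, against a median of -0.11 over all measured genes. Of all measured genes 35.6% had a log2 ratio above 0 and 64.4% below, and of the 9 regulators 4 and 5. The median of the regulators turned to 0.10 after upper-quartile scaling and 0.07 relative to the median gene, so it has no firm direction. A smaller difference was read from the reads, as a ratio whose exact 95% interval excludes 1. By that rule 3 of the 9, HIF1A, ARNT and NR3C1, were higher in the ANGPTL4 library, and 8.27% of measured genes were. By the same rule 3 of the 9, EPAS1, RXRA and PPARG, were lower, and 25.7% of measured genes were. Genes with many reads pass this rule more easily: among the 5679 measured genes with a settled exon length and between 162 and 3305 reads in the vector control library, the range of the regulators, 9.6% were higher and 35.6% lower. A 99% interval left HIF1A and NR3C1 higher (5.29% of measured genes) and EPAS1 and RXRA lower (18.2%). All intervals cover counting error only, not differences between cultures or preparations.

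**Figure D2:**
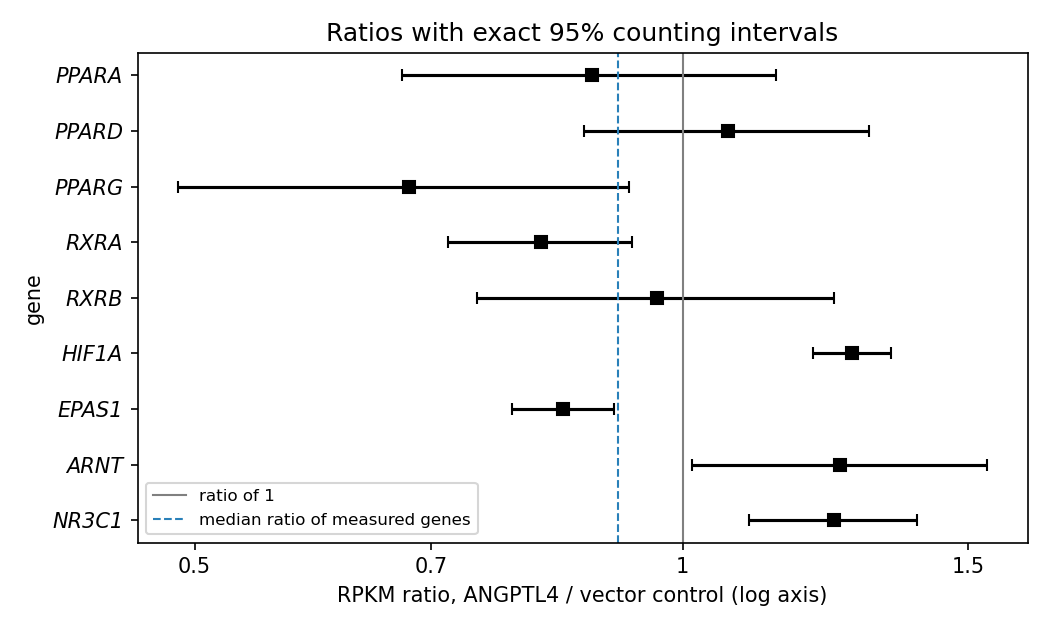
RPKM ratio of each regulator, ANGPTL4 library over vector control library, on a log axis, with exact 95% counting intervals. HIF1A, ARNT and NR3C1 lie right of a ratio of 1 and EPAS1, RXRA and PPARG left of it, and the dashed line marks the median ratio of measured genes, 0.912.

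**Figure D3:**
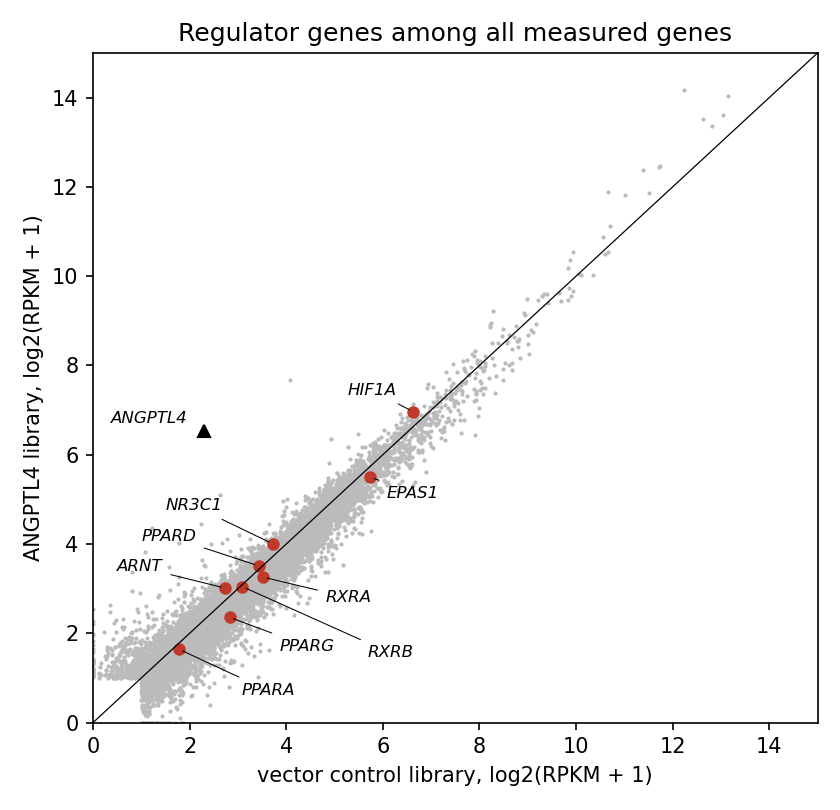
Level of every measured gene (grey) as log2(RPKM + 1) in the vector control library (horizontal) and the ANGPTL4 library (vertical), with the 9 regulators in red and ANGPTL4 as a triangle. The regulators lie close to the diagonal, with log2 ratios from -0.47 to 0.34, whereas ANGPTL4 is at 4.23.

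The HIF alpha subunits had the most reads of the 9 regulators, and HIF1A was higher and EPAS1 lower in the ANGPTL4 library. HIF1A (chromosome 14, 62162231 to 62214976, hg19, values over annotated exons here and for the other genes) encodes the broadly expressed alpha subunit. It was at 124 RPKM (2069 reads) in the ANGPTL4 library and 97.6 RPKM (3305 reads) in the vector control library. The ratio was 1.27 (95% interval 1.20 to 1.34), and 937 measured genes had a higher log2 ratio. Other annotated rows overlap it, and these were low: RP11-618G20.1 was at 1.29 RPKM in the ANGPTL4 library and 0.634 RPKM in the vector control library, HIF1A-AS2 at 0 in the ANGPTL4 library and 0.285 RPKM in the vector control library, and HIF1A-AS1 at 0 in both. Use of strand in the counting is not given in the sources used here, so antisense reads cannot be told from those of HIF1A.

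EPAS1 (chromosome 2, 46520806 to 46613836) encodes HIF-2 alpha, the alpha subunit first described in endothelium. It was at 44.3 RPKM (1045 reads) in the ANGPTL4 library and 52.5 RPKM (2517 reads) in the vector control library. The ratio was 0.844 (0.784 to 0.907), so the gene was lower in the ANGPTL4 library. ARNT (chromosome 1, 150782181 to 150849244), the shared beta subunit, was at 7.07 RPKM (149 reads) in the ANGPTL4 library and 5.65 RPKM (242 reads) in the vector control library. Its ratio was 1.25 (1.01 to 1.54), and a 99% interval, 0.949 to 1.64, included 1.

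Ratios between genes of the same library do not depend on library size or scaling, and 11 such pairs of regulators were compared with exact 95% intervals, 5 of which excluded 1. The pairs were picked by hand and share genes. The share over pairs of other measured genes was not computed, so this count has no background beside it. HIF1A stood at 2.80 times the level of EPAS1 in the ANGPTL4 library and 1.86 times in the vector control library, a 1.51-fold difference (1.38 to 1.65). HIF1A therefore made up 73.7% of the summed alpha subunit RPKM in the ANGPTL4 library and 65.0% in the vector control library. EPAS1 stood at 6.26 times ARNT in the ANGPTL4 library and 9.29 times in the vector control library (0.674-fold, 0.540 to 0.843). HIF1A to ARNT was 17.6 in the ANGPTL4 library and 17.3 in the vector control library, and the interval of that difference, 0.819 to 1.26, included 1.

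Among the PPARs, PPARG was the member with a lower value in the ANGPTL4 library beyond counting error at 95% as deposited, but not relative to the median gene (0.536 to 1.02). PPARG (chromosome 3, 12328867 to 12475855), known for its part in adipocyte and urothelial differentiation, was at 4.13 RPKM in the ANGPTL4 library and 6.09 RPKM in the vector control library. It had the fewest reads of the 9 in both libraries, 54 in the ANGPTL4 library and 162 in the vector control library. The ratio was 0.678 (0.488 to 0.927), the lowest of the 9, with a 99% interval of 0.440 to 1.02. PPARD (chromosome 6, 35310335 to 35395968), the broadly expressed PPAR, was at 10.4 RPKM (150 reads) in the ANGPTL4 library and 9.76 RPKM (286 reads) in the vector control library. Its ratio of 1.07 (0.869 to 1.30) did not differ from 1 beyond counting error. PPARA (chromosome 22, 46546424 to 46639653), the receptor of fatty acid oxidation in liver, was at 2.13 RPKM (83 reads) in the ANGPTL4 library and 2.42 RPKM (192 reads) in the vector control library, a ratio of 0.879 (0.671 to 1.14).

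PPARD held the largest share of the PPAR sum in both libraries. It took 62.5% of 16.7 RPKM in the ANGPTL4 library and 53.4% of 18.3 RPKM in the vector control library. PPARG took 24.8% in the ANGPTL4 library and 33.3% in the vector control library, and PPARA 12.8% in the ANGPTL4 library and 13.2% in the vector control library. The ratio of PPARG to PPARD was 0.397 in the ANGPTL4 library and 0.624 in the vector control library, a 0.636-fold difference (0.432 to 0.929). PPARG against PPARA and PPARA against PPARD gave intervals that included 1, 0.505 to 1.17 and 0.587 to 1.15.

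RXRA, the main retinoid X receptor of epithelia, was lower in the ANGPTL4 library as deposited but not relative to the median gene (0.786 to 1.02), and RXRB was not distinguishable between the libraries at this depth. RXRA (chromosome 9, 137208944 to 137332431) was at 8.57 RPKM (325 reads) in the ANGPTL4 library and 10.5 RPKM (808 reads) in the vector control library. Its ratio was 0.818 (0.717 to 0.931). RXRB (chromosome 6, 33161365 to 33168630) was at 7.25 RPKM (94 reads) in the ANGPTL4 library and 7.52 RPKM (198 reads) in the vector control library. Its ratio was 0.965 (0.747 to 1.24). The annotated region of RXRB overlaps that of SLC39A7, a zinc transporter gene at 42.1 RPKM in the ANGPTL4 library and 49.4 RPKM in the vector control library, so reads in the overlap may belong to either gene. The third gene of the family, RXRG, had 1 read in each library. PPARD against RXRA was 1.21 in the ANGPTL4 library and 0.931 in the vector control library (1.30-fold, 1.02 to 1.66). For PPARG against RXRA the interval of the difference, 0.582 to 1.17, included 1, as did that of RXRA against RXRB, 0.637 to 1.13.

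NR3C1 (chromosome 5, 142657496 to 142815077), the glucocorticoid receptor, was at 15.1 RPKM (447 reads) in the ANGPTL4 library and 12.2 RPKM (733 reads) in the vector control library. The ratio was 1.24 (1.10 to 1.40), a higher value in the ANGPTL4 library. NR3C1 stood at 1.76 times RXRA in the ANGPTL4 library and 1.16 times in the vector control library (1.52-fold, 1.27 to 1.81). HIF1A against NR3C1 was 8.24 in the ANGPTL4 library and 8.03 in the vector control library, with an interval of the difference of 0.900 to 1.17. The related mineralocorticoid receptor, NR3C2, had 0 reads in the ANGPTL4 library and 1 read in the vector control library.

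Because the median ratio of measured genes was 0.912, each regulator was also set against it. Relative to that median HIF1A was 1.40 (1.32 to 1.47), ARNT 1.37 (1.11 to 1.69), NR3C1 1.36 (1.21 to 1.53) and EPAS1 0.925 (0.860 to 0.995). The intervals of the other 5 included 1. Rescaling to a fixed total per library made the split of log2 ratios above and below 0 3 and 6, and upper-quartile scaling made it 5 and 4, with PPARD and RXRB as the genes that crossed 0. HIF1A, ARNT and NR3C1 were above 0 and EPAS1, RXRA and PPARG below 0 in all 10 alternatives tried. Their sizes varied with the scaling. At a fixed total HIF1A was at 0.18, ARNT and NR3C1 at 0.13, EPAS1 at -0.41, RXRA at -0.42 and PPARG at -0.61. After upper-quartile scaling HIF1A was at 0.51, ARNT at 0.42, NR3C1 at 0.44, EPAS1 at -0.08, RXRA at -0.11 and PPARG at -0.33. Whether the intervals of these genes exclude 1 under these scalings was not tested. The pseudocounts, the minimums and the highest row per symbol could not change a sign for these genes. Only the scalings, the setting against the median gene and the exon length and GC fit could. HIF1A and NR3C1 transcripts are low in GC, 36.4% and 39.1%, and of 4 equal GC bins of protein-coding measured genes the lowest had a median log2 ratio of -0.18, against -0.08 in the highest. What part GC has in these values was not tested. With exon length and GC fitted out, the log2 ratio was 0.44 for HIF1A, 0.30 for NR3C1, 0.26 for ARNT, -0.31 for EPAS1, -0.41 for RXRA and -0.41 for PPARG.

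**Figure D4:**
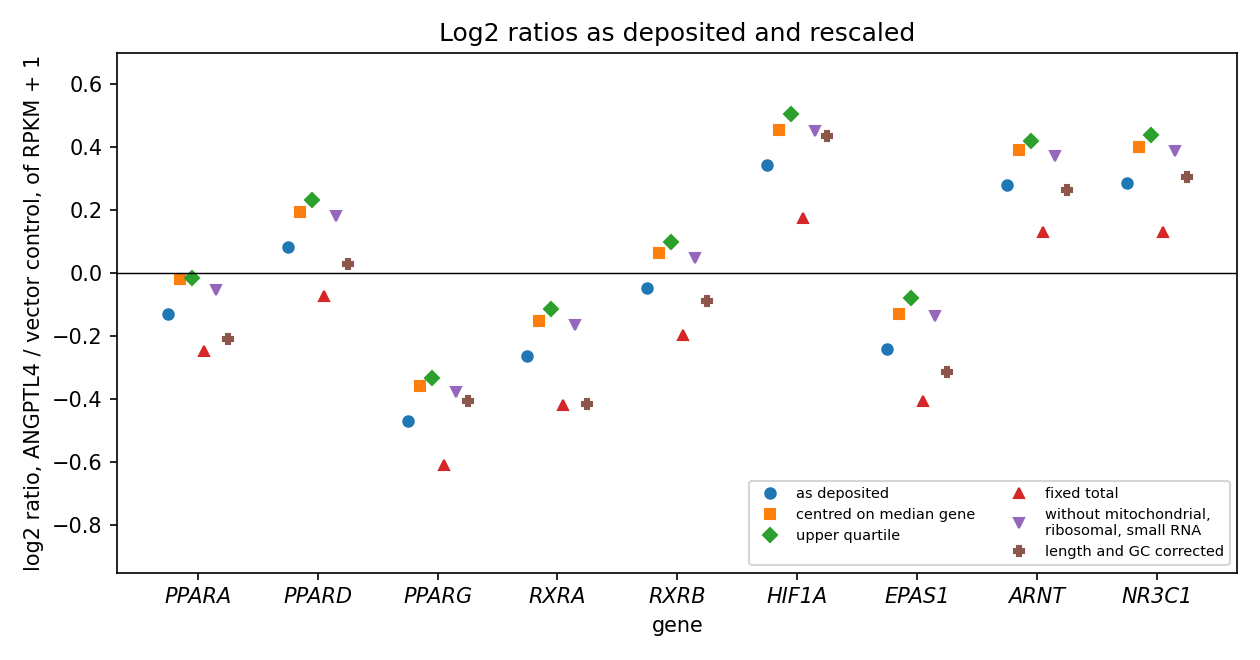
Log2 ratio of each regulator, ANGPTL4 over vector control, of RPKM + 1, as deposited and under other scalings or corrections (symbols). HIF1A, ARNT and NR3C1 stayed above 0 and PPARA, PPARG, RXRA and EPAS1 below it in all those drawn, while PPARD and RXRB fell on both sides.

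Most genes that act on the HIF subunits were on the lower side, where 64.4% of all measured genes also lay. Of 12 listed genes of oxygen sensing and HIF partnership 10 were measured, 9 of them lower in the ANGPTL4 library, with a median log2 ratio of -0.35 against -0.11 for all measured genes. The list median was below 0 in all 10 alternatives, from -0.49 after rescaling to a fixed total to -0.21 with a pseudocount of 5. Of these 10, 1 was at least 1.5-fold higher and 2 at least 1.5-fold lower, 1 of them 2-fold, where 3.08% of measured genes were 1.5-fold higher and 9.25% lower. The 95% counting interval excluded 1 for 7 on the lower side and 1 on the higher side, as it did for 25.7% and 8.27% of measured genes, or 35.6% and 9.6% of those in the read range of the regulators. RBX1 and CUL2 are subunits of the ubiquitin ligase that VHL directs to hydroxylated HIF. RBX1 was at 2.60 RPKM in the ANGPTL4 library and 6.25 RPKM in the vector control library (ratio 0.416, 0.262 to 0.638). CUL2 was at 4.03 RPKM in the ANGPTL4 library and 7.71 RPKM in the vector control library (0.522, 0.391 to 0.688).

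VHL was at 9.10 RPKM in the ANGPTL4 library and 11.4 RPKM in the vector control library (0.800, 0.645 to 0.988). The prolyl hydroxylase genes EGLN1 and EGLN2 were at 3.49 and 2.21 RPKM in the ANGPTL4 library and 5.01 and 3.26 RPKM in the vector control library, and both intervals excluded 1. The asparaginyl hydroxylase gene HIF1AN was at 4.97 RPKM in the ANGPTL4 library and 6.09 RPKM in the vector control library (0.816, 0.696 to 0.955). EGLN3, itself induced by HIF, had 5 reads in the ANGPTL4 library and 23 in the vector control library, and its interval, 0.131 to 1.19, included 1. The member on the other side was CITED2, which competes with HIF1A for the coactivator p300, at 31.6 RPKM in the ANGPTL4 library and 20.5 RPKM in the vector control library (1.54, 1.28 to 1.85). ARNT2, a paralogue of ARNT, was at 2.28 RPKM in the ANGPTL4 library and 2.40 RPKM in the vector control library, and HIF3A had 0 reads in the ANGPTL4 library and 2 in the vector control library.

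HIF targets had a median near that of all measured genes, with some glycolytic members lower in the ANGPTL4 library and others near or above a ratio of 1. Of 34 listed, 32 were measured, 7 higher and 25 lower in the ANGPTL4 library, with a median log2 ratio of -0.13 that became 0.03 after upper-quartile scaling. None was at least 1.5-fold higher and 3 were at least 1.5-fold lower, against 3.08% and 9.25% of measured genes. The 95% interval excluded 1 for 5 on the higher side and 14 on the lower side, against 8.27% and 25.7% of measured genes, or 9.6% and 35.6% of those in the read range of the regulators. Several targets lay above that range, where genes pass this rule more easily. Among them were GAPDH, ENO1 and LDHA on the lower side and NDRG1 on the higher side (31795, 15288, 9935 and 5306 reads in the vector control library). The hexokinase gene HK1 was at 72.9 RPKM in the ANGPTL4 library and 56.7 RPKM in the vector control library (1.29, 1.20 to 1.38). LOX, lysyl oxidase, had the highest log2 ratio of the list, 0.36, but its interval of 0.954 to 2.22 included 1. The glycolytic genes ENO2 and PGK1 were at the low end, with ratios of 0.506 (0.377 to 0.671) and 0.581 (0.534 to 0.631). Chosen after their values were seen, and so for being low, the glycolytic genes ENO1, TPI1, ALDOC and PGAM1 and the glucose transporter gene SLC2A1 had ratios from 0.656 for ALDOC to 0.746 for PGAM1, and all 5 intervals excluded 1. Other glycolytic genes of the list were closer to 1, with GAPDH at 0.915, LDHA at 0.926, PFKFB3 at 0.951, ALDOA at 0.984, HK2 at 0.997 and PFKFB4 at 1.11. The intervals of GAPDH and LDHA lay below 1. Besides HK1, the targets with intervals above 1 were VEGFA (1.19), NDRG1 (1.16), BHLHE40 (1.16) and BNIP3 (1.13).

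PPAR targets held members on both sides. Of 25 listed, 18 were measured, among them ANGPTL4 itself, with 6 higher and 12 lower in the ANGPTL4 library and a median log2 ratio of -0.20, between -0.36 and -0.05 over the alternatives. Of the 18, ANGPTL4 was the only one at least 1.5-fold higher, and the 2 at least 1.5-fold lower were FABP5 and G0S2, against 3.08% and 9.25% of measured genes. The 95% interval excluded 1 for 2 on the higher side and 6 on the lower side, against 8.27% and 25.7% of measured genes. In the read range of the regulators the shares were 9.6% and 35.6%. The 2 on the higher side were ACSL3 and ANGPTL4. ANGPTL4 is the transfected gene, so its place among the higher genes was set by the design. SCD, on the lower side, had more reads than any regulator (9665 in the vector control library). FABP5, a fatty acid carrier that delivers ligand to PPARD, had 22 reads in the ANGPTL4 library and 116 in the vector control library (0.386, 0.233 to 0.612). G0S2, an inhibitor of adipose triglyceride lipase, was at 10.0 RPKM in the ANGPTL4 library and 19.0 RPKM in the vector control library (0.527, 0.335 to 0.805). ACSL3, an acyl-CoA synthetase of lipid droplets, was at 29.7 RPKM in the ANGPTL4 library and 23.6 RPKM in the vector control library (1.26, 1.14 to 1.38). FABP4, CREB3L3 and CIDEC were listed at 0 in both libraries.

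Luminal urothelial genes tied to PPARG had a median log2 ratio of -0.12 over the 8 of 15 that were measured, 0.04 after upper-quartile scaling, and none differed 1.5-fold. The 95% interval excluded 1 for 3 on the lower side and none on the higher side, against 25.7% and 8.27% of measured genes. In the read range of the regulators the shares were 35.6% and 9.6%. The 3 were ELF3, KRT18 and KRT19. KRT18 and KRT19 had ratios of 0.917 and 0.941 and more reads than any regulator (3798 and 6480 in the vector control library). GATA3, a luminal transcription factor, was at 15.8 RPKM in the ANGPTL4 library and 13.1 RPKM in the vector control library (1.20, 0.985 to 1.46). ELF3, an epithelial transcription factor, was at 7.05 RPKM in the ANGPTL4 library and 8.89 RPKM in the vector control library (0.794, 0.659 to 0.953). GRHL3 was at 5.89 RPKM in the ANGPTL4 library and 7.30 RPKM in the vector control library, and ERBB2 at 9.89 RPKM in the ANGPTL4 library and 9.71 RPKM in the vector control library, both with intervals that included 1.

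None of the other measured nuclear receptors that pair with RXR differed between the libraries beyond counting error at the reads recovered. For RARG and THRB these are minimum reads, so their intervals may be too wide and a difference could be missed. Of 14 listed, 9 were measured, none differed 1.5-fold, and no 95% interval excluded 1, against 8.27% of measured genes on the higher side and 25.7% on the lower side. Their median log2 ratio was -0.03 as deposited and 0.10 after upper-quartile scaling. NR4A2 and NR4A1, orphan receptors of the immediate early response, had ratios of 1.36 (0.703 to 2.55) and 1.30 (0.867 to 1.92). The thyroid hormone receptor gene THRB had a ratio of 0.801 (0.613 to 1.04), and the liver X receptor gene NR1H2 one of 0.843 (0.652 to 1.08).

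Coactivators and corepressors of nuclear receptors had a median log2 ratio of 0.03 over 16 of 17 measured genes, or -0.11 after rescaling to a fixed total. Their 95% intervals excluded 1 for 4 on the higher side and 2 on the lower side, against 8.27% and 25.7% of measured genes. In the read range of the regulators the shares were 9.6% and 35.6%. CITED2, counted also among the genes of oxygen sensing and HIF partnership, had the highest log2 ratio, 0.60 (ratio 1.54, 1.28 to 1.85). It was the only gene of the list at least 1.5-fold higher and none was 1.5-fold lower, against 3.08% and 9.25% of measured genes. PPRC1, a coactivator related to PGC-1, was at 26.1 RPKM in the ANGPTL4 library and 19.1 RPKM in the vector control library (1.36, 1.22 to 1.53). NRIP1, a corepressor, was at 2.69 RPKM in the ANGPTL4 library and 3.97 RPKM in the vector control library (0.678, 0.508 to 0.894). TBL1X, a corepressor subunit, was at 12.9 RPKM in the ANGPTL4 library and 14.0 RPKM in the vector control library (0.920, 0.799 to 1.06). The TBL1X interval rests on minimum reads and may be too wide. PPARGC1A, the PPARG coactivator PGC-1 alpha, was listed at 0 in both libraries.

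Glucocorticoid receptor chaperones and steroid enzymes were measured for 10 of 12 genes, with 4 higher and 6 lower in the ANGPTL4 library and a median log2 ratio of -0.20, between -0.37 and -0.04 over the alternatives. The 95% interval excluded 1 for 2 on the higher side and 6 on the lower side, against 8.27% and 25.7% of measured genes. Among measured genes in the read range of the regulators the shares were 9.6% and 35.6%. HSP90AB1, HSP90AA1 and HSPA8 had more reads than any regulator (15102, 12389 and 10552 in the vector control library), and genes with many reads pass this rule more easily. HSP90AA1, the inducible HSP90 that holds the unliganded receptor, was at 242 RPKM in the ANGPTL4 library and 359 RPKM in the vector control library (0.673, 0.650 to 0.697). DNAJB1 had a ratio of 0.759 (0.680 to 0.847). STIP1, which passes the receptor from HSP70 to HSP90, was at 119.8 RPKM in the ANGPTL4 library and 100.6 RPKM in the vector control library (1.19, 1.12 to 1.26). HSPA8 had a ratio of 1.09 (1.06 to 1.13). HSP90AA1 and HSPA8 have processed pseudogenes, which makes their reads less certain.

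Glucocorticoid receptor targets were measured for 15 of 19 genes, 4 higher and 11 lower in the ANGPTL4 library, with a median log2 ratio of -0.23. The median stayed below 0 in all 10 alternatives, with -0.12 after upper-quartile scaling. The 95% interval excluded 1 for 3 on the higher side and 6 on the lower side, against 8.27% and 25.7% of measured genes. In the read range of the regulators the shares were 9.6% and 35.6%. ANXA1, MT2A and ERRFI1, all on the lower side, had more reads than any regulator (4520, 4375 and 3618 in the vector control library). FKBP5, a sensitive target in many cells, was at 1.37 RPKM in the ANGPTL4 library and 1.33 RPKM in the vector control library (1.03, 0.707 to 1.47). TSC22D3, which encodes GILZ, had 9 reads in the ANGPTL4 library and 41 in the vector control library (0.446, 0.191 to 0.932). NFKBIA, the inhibitor of NF-kB, was at 100.3 RPKM in the ANGPTL4 library and 76.7 RPKM in the vector control library (1.31, 1.19 to 1.43). PER1, a clock gene, had a ratio of 1.44 (1.03 to 1.99). At the low end were MT1X, a metallothionein with near-identical paralogues, at 0.394 (0.338 to 0.458) and ANXA1, annexin A1, at 0.626 (0.589 to 0.664).

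**Figure D5:**
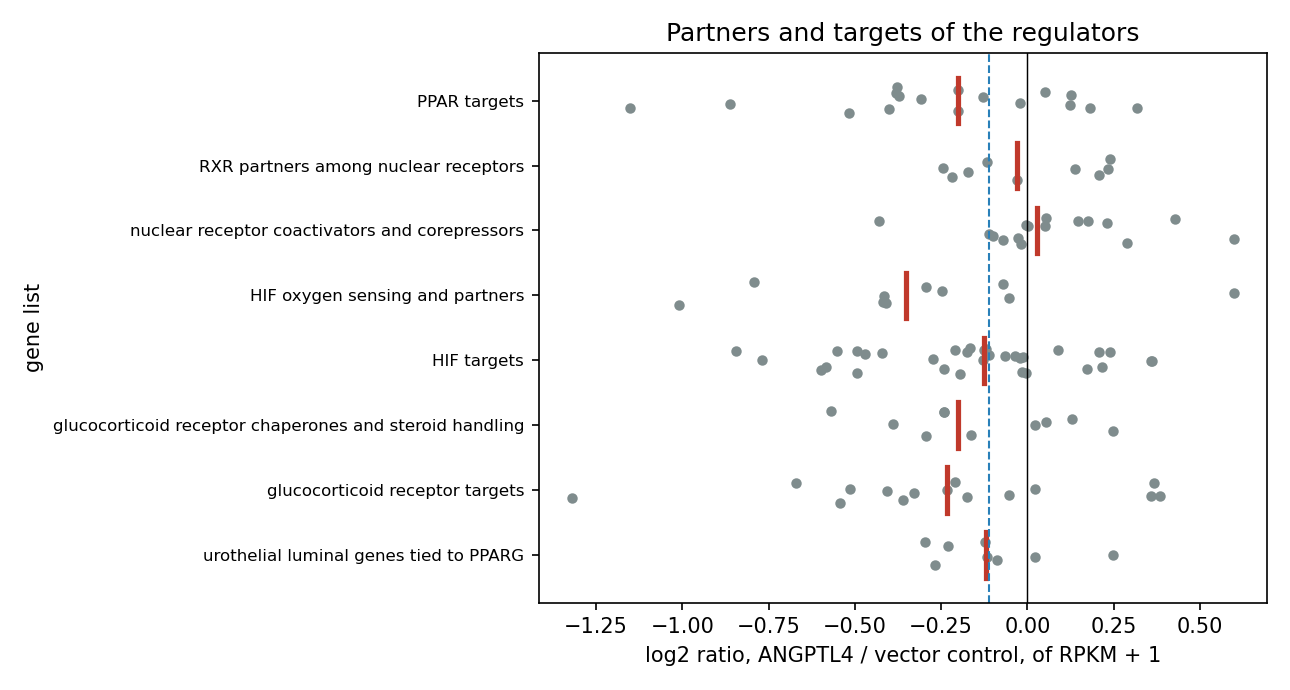
Log2 ratio, ANGPTL4 over vector control, of RPKM + 1 for each measured gene (grey points) of 8 lists of partners and targets, with the list median as a red bar, computed with ANGPTL4, which is off the scale and not drawn. The dashed line is the median of all measured genes, -0.11, and the list of oxygen sensing and HIF partners has the lowest median, -0.35.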

How the data were processed

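The files hold RPKM values as the authors deposited them, 1 library per group, per the file headers. Per the submitters' processing notes, coordinates follow hg19. Aligner, counting program, annotation release and use of strand are not given in the sources used here.

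Rows of 1 symbol were summed (57773 rows, 55773 symbols). Reads were recovered by seeking the library total at which all 13 mitochondrial protein genes became whole reads, then the exon length at which both values of a row did (tried up to 60000 bases and taken when a single length lay within 20% of the GENCODE release 29 length). This settled 74.4% of 18483 rows above 0, all 9 regulators among them. Elsewhere the smallest length was used, which gives minimum reads. Ratio intervals are exact (Clopper-Pearson on the split of reads), and intervals between gene pairs are exact conditional ones. The log2 ratio uses a pseudocount of 1 and so understates differences of low genes. The exon length and GC correction is a cubic fit over protein-coding measured genes. The procedures were tested on simulated data.

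All regulators were named, and from each list the pair of measured genes with the highest log2 ratios and the pair with the lowest, with further genes where their role required. The members and lists were chosen with earlier results of these data known. A likeness of pattern between genes was not computed, since 2 libraries give 1 ratio per gene. The work used Python 3.11.15, scipy 1.17.1 and pandas 2.3.3.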

Additional observations from a re-analysis of the deposited data

How the results depend on the processing

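The alternatives were pseudocounts of 0.1 and 5, upper-quartile scaling, a fixed total, no minimum, a minimum of 5 RPKM, ratios set against the median gene, rescaling without mitochondrial, ribosomal and small RNA genes, the highest row per symbol and, added after seeing the data, an adjustment for exon length and GC. The count of regulators at least 1.5-fold lower became 1 instead of 0 after rescaling to a fixed total per library, where PPARG reached -0.61 on the log2 scale. The count with a 95% interval below 1 became 1, EPAS1, instead of 3 when ratios were centred on the median gene. Interval counts were recomputed only for that centring, a 99% interval and genes with a settled exon length, not for the other scalings. Of the counts that were computed, the others stayed within 1.5-fold. The median log2 ratio of the regulators, -0.05 as deposited, changed sign, to 0.02 with a minimum of 5 RPKM, 0.05 without the mitochondrial, ribosomal and small RNA genes, 0.07 against the median gene and 0.10 after upper-quartile scaling, and was -0.19 at a fixed total. Of 89 log2 ratios of single regulators under alternatives, 9 moved beyond their interval, all of HIF1A or EPAS1 and none in direction, with HIF1A between 0.18 and 0.51 and EPAS1 between -0.41 and -0.08. Under the minimums and the highest row per symbol a regulator that stays measured keeps its value, so those ratios could not move. Of 80 list medians, 32 moved by at least 0.1. No paired analysis was possible because each group has 1 library, and for the same reason no replicate could be left out. With 54 and 162 reads for PPARG in the ANGPTL4 and vector control libraries, small differences of low genes could not be detected at this depth.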
